A study of Mus musculus with 7 samples.

Results

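The class II olfactory receptor genes of mouse chromosome 7 that lie outside the class I receptor cluster numbered 112 of the 50600 genes counted in olfactory epithelium, the tissue of the nose that detects odorants. They were taken as every gene whose symbol is Olfr and a number with nothing after it, on chromosome 7, with a start below 102 Mb or above 105.5 Mb on GRCm38. Genes so named numbered 1110 in all, of which 128 lay inside the excluded window and 870 on other chromosomes. The label class II rests on position, and receptor protein sequences were not used here to check it. The nearest genes on either side of the lower limit were Olfr521 (mean 0.624 TPM over 7 libraries) inside the rule and Olfr543 (0.936 TPM) in the excluded window. At the upper limit they were Olfr693 (3.57 TPM) inside and Olfr692 (1.36 TPM) outside.

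Expression was measured by RNA sequencing of whole olfactory epithelium at postnatal day 7 in 7 libraries. The 1 wild-type library came from an Amigo1+/+ mouse (WT). The 3 Amigo1-/- libraries (KO) lack the gene Amigo1, which encodes a neuronal cell adhesion protein. The 3 Amigo1neo/neo libraries (neo) also lack the Amigo1 coding region and carry in its place a neomycin cassette, the drug resistance gene used to select targeted cells. KO and neo thus share the loss of Amigo1 and differ in the cassette. The sample names of neo carry another prefix and another date-like number than those of WT and KO. What the prefix stands for is not given. The cassette, whatever the prefix marks and that date cannot be told apart. Whether each library is a separate animal is not given, and p-values here reflect only how far these libraries spread, part of which may be technical.

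Odorant receptors are G protein-coupled receptors on the cilia of olfactory sensory neurons. Class II genes, the larger group in mammals, form tandem clusters on many chromosomes, and each mature neuron transcribes only 1 allele of 1 receptor gene. In bulk tissue the level of a receptor transcript therefore reflects how many neurons chose that gene and how much RNA each holds, and fewer neurons and less RNA per neuron cannot be told apart. Enhancers bound by the homeodomain protein Lhx2 and by Ebf proteins act on nearby receptor clusters. Receptor genes carry their whole coding sequence in an exon that is usually preceded by short noncoding exons.

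With a new subcluster begun wherever neighbouring genes lay over 1 Mb apart, the 112 genes fell into 6 subclusters, numbered from the centromere. Subcluster 1 (chromosome 7, 6438688 to 6571401) held 8 genes and subcluster 2 (84853553 to 84920861) held 2. Subcluster 3 (86268487 to 86697507) held 15 genes and subcluster 4 (99730273 to 99769321) held 2. Subcluster 5 (106675005 to 108894420) was the largest with 66 genes, and subcluster 6 (140159999 to 140705606) held 19. Subcluster 5 itself has a gap of over 0.5 Mb. The gap leaves a proximal part of 23 genes (106675005 to 107150581) and a distal part of 43 (107812263 to 108894420). Both strands are used, with 54 genes on the plus and 58 on the minus strand, but the genes of subclusters 2 and 4 all lie on the plus strand. Of the 112 genes, 111 are annotated as protein coding, and Olfr471 is annotated as an unprocessed pseudogene.

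Sequence before the transcript start was examined for letters that Ebf and homeodomain proteins bind. RefSeq windows on GRCm38.p6 matched 98 of the 112 genes by symbol, but the RefSeq start lay within 100 bp of the start of the GENCODE M21 gene for only 23 of them. The median distance over the 98 was 2155 bp, so most RefSeq windows lie inside the GENCODE gene. The 250 bases before the RefSeq start are shown for 3 of the 23. Olfr536 (chr7:140507319-140507568, minus strand) is the most abundant gene of the set. Olfr301 (chr7:86403599-86403848, plus strand) and Olfr711 (chr7:106975452-106975701, minus strand) are among the genes with the smallest p between neo and KO, higher and lower in neo. Capitals mark CCCNNGGG, the core of the Ebf motif, and TAATTA or TAATGA on either strand, homeodomain cores of the kind Lhx2 binds.
Olfr536: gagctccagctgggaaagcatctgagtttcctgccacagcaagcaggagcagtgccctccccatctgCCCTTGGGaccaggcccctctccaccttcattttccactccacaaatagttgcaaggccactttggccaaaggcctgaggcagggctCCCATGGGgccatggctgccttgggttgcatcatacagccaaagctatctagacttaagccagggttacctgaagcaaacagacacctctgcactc
Olfr301: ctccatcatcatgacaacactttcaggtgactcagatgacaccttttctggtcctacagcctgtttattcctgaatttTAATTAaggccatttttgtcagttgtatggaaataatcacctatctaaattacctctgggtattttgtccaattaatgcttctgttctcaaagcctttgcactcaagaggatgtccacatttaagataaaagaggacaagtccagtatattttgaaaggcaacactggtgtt
Olfr711: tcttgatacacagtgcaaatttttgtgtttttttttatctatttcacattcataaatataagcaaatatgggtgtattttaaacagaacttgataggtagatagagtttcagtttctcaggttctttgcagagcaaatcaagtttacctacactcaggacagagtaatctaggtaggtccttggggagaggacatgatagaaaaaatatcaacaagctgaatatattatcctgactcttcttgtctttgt
The Olfr536 window holds CCCNNGGG at 2 places and the Olfr301 window holds 1 TAATTA. The Olfr711 window holds none of these letters. In windows of 300 bases (250 before and 50 after the start), CCCNNGGG was in 6.12% of the 98, in 2.72% of the windows of other numbered receptor genes and in 13.7% of all windows in the table. TAATTA was in 12.2%, 19.4% and 5.29% of the same sets, and TAATGA on either strand in 23.5%, 29.4% and 9.78%. The last 2 motifs can share bases. TATAAA on either strand, a TATA box core, was in 46.9%, 40.5% and 13.6%. Among the 23 windows near the GENCODE start, 3 held CCCNNGGG, 2 held TAATTA, 9 held TAATGA and 12 held TATAAA. A match describes these letters only.

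Gene counts totalled 14879415 to 21343058 per library. Levels of 1 gene across libraries are given in CPM (read counts scaled to library size by the trimmed mean of M-values) and levels of different genes in TPM, which also divides by transcript length. Neuron markers were high. Omp, the marker of mature olfactory neurons, ranged from 783 to 1162 CPM over the 7 libraries. Trpc2, the channel gene of vomeronasal neurons, had 0 counts in all 7. Gnao1 and Gnai2, listed with Trpc2 for vomeronasal neurons, were at 244 to 298 and 152 to 179 CPM, so that list did not go 1 way. The targeted gene Amigo1 had 744 counts in WT and at most 16 in any KO or neo library. WT and neo replicate 1 were high in Xist (643 and 1144 CPM) and the other libraries were at most 4.18 CPM. The Y-linked gene Ddx3y showed the reverse, at most 0.046 CPM in WT and neo replicate 1 and at least 60.6 CPM elsewhere. Sex therefore differed between WT and KO and was mixed in neo, and in KO against WT sex and genotype cannot be told apart.

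The set was transcribed broadly and at low levels, with a few genes far above the rest. Reads were found in every library for 103 of 112 genes, and the median gene stood at 1.42 TPM (mean of 7 libraries). A mean of at least 1 TPM was reached by 78 genes and of at least 5 TPM by only 5. Those 5 took 24.4% of the summed TPM of the set, and 21 genes held 50% of it. The lower 56 genes shared 19.5% of it. Median levels of the 128 genes of the class I window (1.57 TPM) and of the 870 on other chromosomes (1.54 TPM) were close to that of the set. No test was made between these gene groups, since genes are not replicates.

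**Figure D1:**
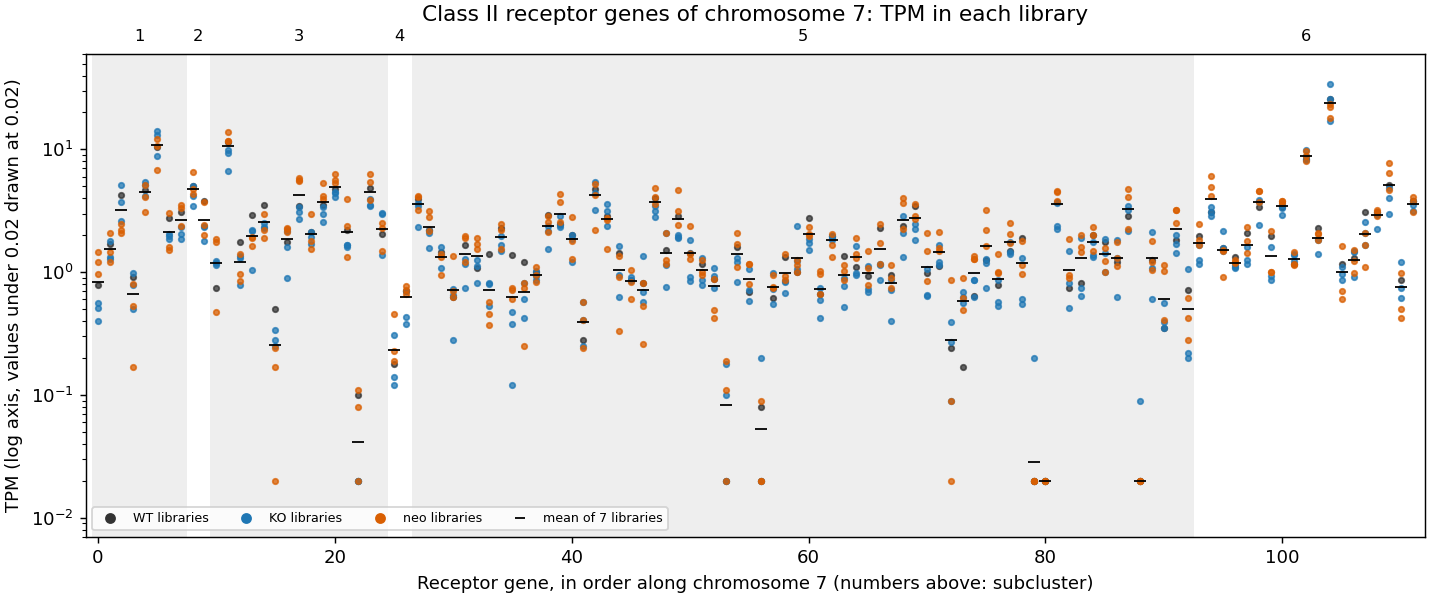
TPM of each of the 112 receptor genes (log axis) in order along chromosome 7, with 1 point per library coloured by genotype and a dash at the mean of 7 libraries. Alternating shaded and white blocks are subclusters, and values under 0.02 are drawn at 0.02. Most genes lie near 1 TPM, Olfr536 in subcluster 6 stands highest at a mean of 23.8 TPM, and a few genes lie at or near 0.

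Olfr536 (140500849 to 140507396, minus strand) led the set. Its level was 45.3 CPM in WT, 34.0, 51.5 and 47.3 CPM in KO replicates 1 to 3, and 35.0, 34.4 and 35.7 CPM in neo replicates 1 to 3. KO replicate 1 lay below every neo library and the other KO libraries above them, so the groups overlapped. By TPM it averaged 23.8 ± 5.73 (SD, n = 7), which was 33.4% of the summed TPM of subcluster 6. Next came Olfr1348 in subcluster 1 (10.9 ± 2.53 TPM) and Olfr309 in subcluster 3 (10.6 ± 2.26 TPM), and these levels did not differ beyond their spread. Olfr533 in subcluster 6 followed at 8.83 ± 0.721 TPM. Olfr539 (5.11 ± 1.59), Olfr297 (4.99 ± 0.769), Olfr291 (4.77 ± 0.974), Olfr1347 (4.53 ± 0.799) and Olfr293 (4.49 ± 1.1 TPM) followed within each other's spread. The first 4 places were thus spread over subclusters 6, 1 and 3, none of them in subcluster 5.

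Subclusters differed in their share of the set and in the level of their median gene. Subcluster 5, with 66 of the 112 genes, gave 38.4% of the summed CPM of the set. Subcluster 6 gave 28.7% from 19 genes and subcluster 3 gave 20.5% from 15. Subcluster 1 gave 8.63%, subcluster 2 gave 3.48% and subcluster 4 gave 0.252%. The median gene stood at 3.71 TPM in subcluster 2, 2.39 in subcluster 1, 2.11 in subcluster 3, 1.91 in subcluster 6, 1.30 in subcluster 5 and 0.429 in subcluster 4. In subcluster 1 the first gene alone, Olfr1348, took 41.1% of summed TPM, and in subcluster 3 Olfr309 took 24.4%. In subcluster 5 the first gene took 4.53%. The share of a first gene also depends on how many genes a subcluster holds, here 8, 15 and 66. These shares therefore do not compare how evenly the genes were used. Both genes of subcluster 4 were low, Olfr521 at 0.624 ± 0.153 TPM and Olfr520 at 0.233 ± 0.118 TPM.

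Olfr6, Olfr17 and Olfr2, much used in work on axon targeting, all lie in the proximal part of subcluster 5. Olfr6, the receptor M50, was its most abundant gene. It had 12.7 CPM in WT, 8.76, 13.6 and 11.4 CPM in KO, and 12.3, 8.54 and 12.1 CPM in neo, with 1 low library in each mutant group. Olfr17, the receptor P2, had 10.2 CPM in WT, 8.82, 7.88 and 7.12 CPM in KO, and 8.64, 9.98 and 10.4 CPM in neo. Olfr2, the receptor I7, had 4.00 CPM in WT, 2.27, 3.32 and 2.82 CPM in KO, and 2.55, 1.43 and 2.13 CPM in neo. WT was above every KO and neo library for Olfr2, and mutant groups overlapped for all 3 genes. In the distal part, Olfr506 was highest at 3.57 ± 0.938 TPM (SD, n = 7).

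Neighbouring genes were not alike in level. Across neighbouring genes the Spearman correlation of mean TPM was -0.02 over 65 pairs in subcluster 5, -0.33 over 14 pairs in subcluster 3 and -0.34 over 18 pairs in subcluster 6. These are descriptions over genes of the same libraries. In subcluster 6 the most abundant gene, Olfr536, lies between Olfr535 (1.91 TPM) and Olfr538 (1.006 TPM).

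At the low end, 4 genes had at most 3 reads over all 7 libraries. Olfr504 had 0 reads and was listed at 0 TPM. At 95% confidence, and for counting error only, 0 reads allow an expected count of up to 3 over the 7 libraries. Olfr514 had 1 read and Olfr503 had 2, each in 1 KO library. Olfr1344 also had 0 reads, yet its deposited TPM was 0.78 in WT, 0.40, 0.56 and 0.51 in KO, and 1.2, 0.97 and 1.45 in neo. Every neo value was above every KO value. This gene overlaps exons of Gm20715 on the same strand, and 72.6% of the 50-base runs in its transcripts occur in transcripts of another gene. Reads that fit both genes may be treated differently by the count and by the TPM estimate, so neither value is certain.

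Shared sequence touched other members less. No run was shared with another gene for 13 of the 112 genes, and over 20% of runs were shared for 15. The median of those 15 was 138 reads over 7 libraries, against 444 for the other 97. By TPM the same medians were 1.006 and 1.55. Among the 15 were the neighbours Olfr469 (27.98% of runs, mostly with Olfr470) and Olfr470 (27.2%), and Olfr516 (26.2%) with Olfr519 (30.0%). Olfr715, at 38.8%, shared most with Olfr715b, and Olfr1347, at 25.0%, with its neighbour Olfr1348. Counts of these genes are uncertain, since reads that fit more than 1 place are not in the gene counts.

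**Figure D2:**
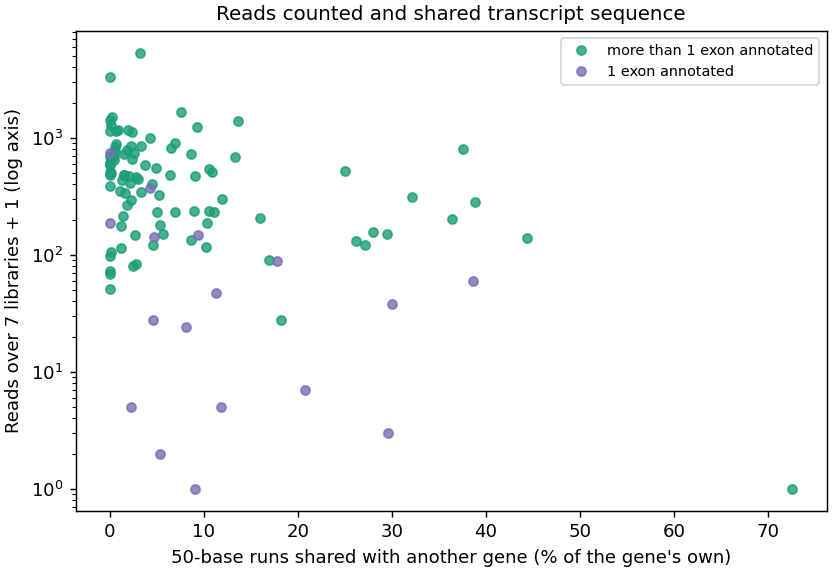
Reads summed over 7 libraries plus 1 (log axis) against the percent of a gene's 50-base runs that occur in transcripts of another gene, for 112 receptor genes. Green points have more than 1 annotated exon and purple points 1 exon. Olfr1344 lies at the far right with 0 reads, and 10 of the 17 genes with 1 exon were below the count filter.

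Levels also differed with the annotation. The 17 genes annotated with a single exon had a median of 0.503 TPM and a median exon length of 958 bases. The 95 genes with more exons had 1.64 TPM and 3282 bases. Of the 17, 10 were below the count filter between neo and KO, and of the 95, 6 were. The part of the annotation in these levels was not tested.

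Neo was compared with KO to set the cassette apart from the loss of Amigo1. No gene of the set passed (lowest adjusted p = 0.384, edgeR). Folds between neo and KO were small, and most were above KO. The count filter kept 96 of the 112 genes, and the 16 left out had 0 to 82 reads over 7 libraries and at most 0.839 TPM. Over the 17638 genes tested, 0.017% passed. At an unadjusted p under 0.05 there were 12 genes of the set (12.5%) against 9.32% of all genes. Of these 8 were higher in neo (8.33%) against 4.59% of all genes tested, and 4 were lower (4.17%) against 4.72%. All 3 neo libraries lay above all 3 KO libraries for 21 genes (21.9%) against 7.58% of all genes, and below them for 7 (7.29%) against 7.98%. The fold was positive for 69 of 96 genes (71.9%) against 49.6% of all genes. The median log2 fold was 0.21, where the median of all genes tested was -0.00. DESeq2 also called 0 of 101 genes of the set with an adjusted p, against 0.516% of all genes. By the authors' deposited table, 0 of 100 genes had an adjusted p under 0.05 (lowest 0.172, Olfr1346). In the authors' deposited table, 8 had an unadjusted p under 0.05.

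The count of small p-values leaned on single libraries. Without KO replicate 1, 19 genes had an unadjusted p under 0.05 and the median log2 fold was 0.34. Without KO replicate 2 there were 6 such genes and without KO replicate 3 there were 5, and the median log2 fold was 0.20 and 0.14. With limma on log2(TPM + 0.1) 10 were higher and 1 lower, on a scale where the median of all genes was 0.10. The fold was positive for 61 genes (without KO replicate 3) to 74 genes (without KO replicate 1) when a library was left out. Medians of the same kind were 0.23 for 110 tested genes of the class I window and 0.26 for 767 on other chromosomes, so receptor genes elsewhere had medians of like size.

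**Figure D3:**
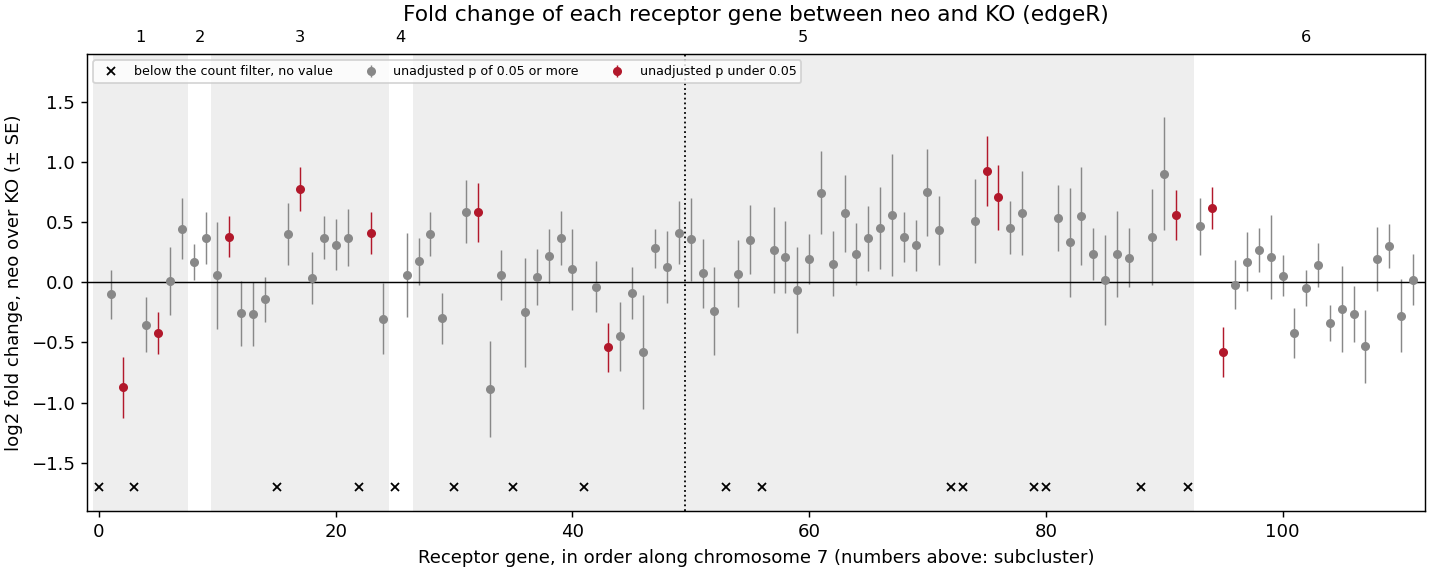
Log2 fold change of neo over KO (edgeR, bars are SE) for the 96 tested genes in order along chromosome 7, with crosses for the 16 below the count filter. Red points have an unadjusted p under 0.05, none passed after adjustment, and the dotted line divides subcluster 5. Between that line and subcluster 6, 33 of 35 points lie above 0, while subcluster 6 is split 10 above and 9 below.

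The subclusters were not alike in the direction of their folds. Subcluster 5 as a whole had 45 of 55 tested genes with a positive fold and a median of 0.28 on the log2 scale. In its distal part, set apart by the smaller gap of 0.5 Mb, 33 of 35 tested genes had a positive fold, with a median of 0.37. The fold was positive for 49.6% of all genes tested, for 94 of 110 genes of the class I window and for 553 of 767 on other chromosomes. Neo libraries lay above all KO libraries for 10 of the 35 and below for 0, beside 7.58% and 7.98% of all genes. On other chromosomes they lay above for 149 of the 767 and below for 37, and in the class I window above for 6 of the 110 and below for 1. In the proximal part 12 of 20 were positive, with a median of 0.08. Subcluster 3 had 9 of 13 positive (median 0.31) and subcluster 6 had 10 of 19 (median 0.02). In subcluster 1, 2 of 6 were positive and the median was -0.23. Leaving out 1 library at a time gave 29 (without neo replicate 1) to 34 positive folds of 35 in the distal part. No test of one subcluster against another was made, since genes of a subcluster share the libraries.

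Summed CPM did not overlap between neo and KO in subclusters 2 and 3 and in the distal part of subcluster 5. The distal part of subcluster 5 summed to 72.2 CPM in WT, 77.4, 61.5 and 58.8 CPM in KO, and 90.1, 80.0 and 80.7 CPM in neo. All neo libraries were above all KO libraries, with a ratio of means of 1.27. The proximal part summed to 102.7 CPM in WT, 95.4, 93.2 and 81.9 CPM in KO, and 96.5, 91.8 and 99.97 CPM in neo, and the groups overlapped. Subcluster 3 summed to 95.1 CPM in WT, 88.2, 85.8 and 72.3 CPM in KO, and 104, 91.5 and 95.7 CPM in neo. Neo was above KO throughout (ratio 1.18), but without its first gene, Olfr309, the groups overlapped (ratio 1.14). Subcluster 2 also did not overlap, with 14.2, 13.4 and 13.4 CPM in the KO group and 14.6 to 18.4 CPM in neo. Its genes Olfr291 and Olfr290 each overlapped when taken alone. Of the 50-base runs of Olfr290, 37.6% occur in transcripts of another gene, so its count is uncertain. By summed TPM subcluster 2 overlapped, at 5.80, 7.42 and 5.99 TPM in KO against 10.29, 6.32 and 7.23 TPM in neo. Subcluster 1 was lower in neo, at 36.3, 30.1 and 31.2 CPM against 34.5, 46.8 and 42.5 CPM in the KO group and 44.7 CPM in WT, where KO replicate 1 fell inside the neo range. Without Olfr1346 its ratio of neo to KO was 0.876 in place of 0.788. Subcluster 6 was level, at 117.7 to 136.5 CPM in the KO group and 118.5 to 126.5 CPM in neo. Subcluster 4 was near 1 CPM in every library. Beside these, the ratio of neo to KO was 1.17 for summed CPM of the class I window. It was 1.11 for receptor genes on other chromosomes, and groups overlapped in both.

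**Figure D4:**
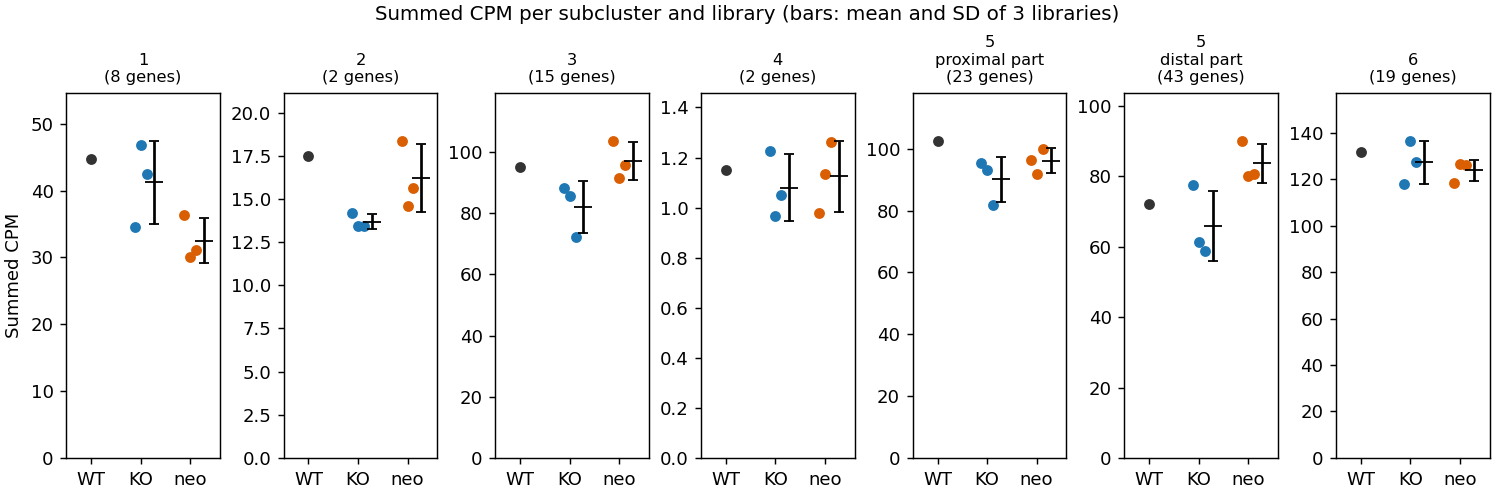
Summed CPM of the genes of each subcluster, with subcluster 5 in its proximal and distal parts, for the WT (1), KO (3) and neo (3) libraries. Points are libraries and bars are the mean and SD of 3. Neo points lie above all KO points in subclusters 2 and 3 and in the distal part of subcluster 5, and the other panels overlap.

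Over the whole set the summed level was 465 CPM in WT, 429, 438 and 397 CPM in KO, and 465, 436 and 451 CPM in neo. The groups overlapped, at 421 ± 21.4 CPM in the KO group and 450 ± 14.5 CPM in neo (SD, n = 3 each). Markers of mature olfactory neurons differed in the same direction. Of 16 markers 16 had a positive fold and none passed (lowest adjusted p = 0.469, edgeR). They summed to 4461 to 5083 CPM in the KO group and 5220 to 5663 CPM in neo, with none at 0. Per 1000 CPM of these markers, the set held 89.7 ± 5.72 CPM in the KO group and 83.8 ± 5.98 CPM in neo (SD, n = 3 each), a ratio of 0.934. On that scale the distal part of subcluster 5 was 15.2, 13.4 and 13.2 CPM in the KO group and 17.1, 14.1 and 15.5 CPM in neo, and the groups overlapped. Subcluster 2 was 2.79 to 3.01 CPM in the KO group and 2.57 to 3.48 CPM in neo (ratio 1.04), and the groups overlapped. Subcluster 3 overlapped as well, at 16.2 to 18.7 CPM in the KO group and 16.2 to 19.7 CPM in neo (ratio 1.04). Subcluster 1 was 6.78, 10.2 and 9.52 CPM in the KO group and 6.88, 5.31 and 5.97 CPM in neo, again with an overlap.

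Genes that carry out or control receptor expression, were compared between neo and KO with 0 passing in any list, beside an unadjusted p under 0.05 in 4.59% of all genes higher, 4.72% lower and 9.32% in all. Of 17 genes for receptor transport and signalling, 3 were higher at an unadjusted p under 0.05, above the share of all genes. The fold was positive for 17. Among them are Rtp1, which brings receptors to the cell surface, and Adcy3, the olfactory adenylyl cyclase. Most of the 17 are also among the 16 markers of mature neurons, as are Stoml3 and Ric8b of the 3 higher genes. The 17 are therefore not a result separate from those markers. Of 23 genes that regulate receptor choice, 1 was higher and 1 lower at that level, near the share of all genes. Lhx2 was 283 CPM in WT, 232 to 306 CPM in the KO group and 251 to 326 CPM in neo. Ldb1, which bridges Lhx2-bound enhancers, was 98.3 to 134 CPM in the KO group and 107 to 137 CPM in neo. The dorsal zone enzymes Nqo1 and Acsm4 summed to 250 to 362 CPM in the KO group and 380 to 463 CPM in neo, and 2 of 2 had an unadjusted p under 0.05. The ventral markers Ncam2 and Nrp2 summed to 269.5 to 290.2 CPM in the KO group and 214 to 290.1 CPM in neo, with 0 of 2 positive and none at that level. Markers of basal and dividing progenitor cells summed to 291 to 346 CPM in the KO group and 369.5 to 406 CPM in neo, with 5 of 6 positive and 2 higher at that level. Bone markers summed to 8150 to 12670 CPM in the KO group and 2982 to 6090 CPM in neo, with 5 of 5 lower at that level and none at 0. Macrophage markers summed to 75.8 to 85.2 CPM in the KO group and 81.4 to 118 CPM in neo, with 4 of 5 higher. Of 10 markers of immature neurons 3 had a positive fold and 1 was lower at an unadjusted p under 0.05. The part of the neuron, zone, basal, bone and macrophage markers in the receptor folds was not tested.

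Among genes higher in neo, Olfr301 in subcluster 3 had the smallest p. Its level was 4.87 CPM in WT, 4.78, 4.34 and 3.81 CPM in KO, and 6.77, 8.01 and 7.31 CPM in neo. Every neo library was above WT and every KO library, a log2 fold of 0.77 (SE 0.18, adjusted p = 0.384, edgeR) that did not pass. Olfr523, the next to first gene of subcluster 6, had 8.69 CPM in WT, 10.04, 7.88 and 9.44 CPM in KO, and 12.2, 13.1 and 16.8 CPM in neo. The groups did not overlap, and the log2 fold was 0.62 (SE 0.17, adjusted p = 0.459, edgeR). Olfr495 in the distal part of subcluster 5 had 2.02 CPM in WT, 2.33, 1.98 and 1.27 CPM in KO, and 4.21, 2.75 and 3.59 CPM in neo, a log2 fold of 0.93 (SE 0.29). The other 2 of the 5 higher genes with the smallest p were Olfr518, at 3.64 ± 0.683 CPM in the KO group and 5.36 ± 0.367 CPM in neo, and Olfr497, at 1.06 ± 0.0916 and 1.72 ± 0.218 CPM (SD, n = 3 each). Both lie in the distal part of subcluster 5 as well, and neither passed.

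Among genes lower in neo, Olfr1346 in subcluster 1 came first. It had 10.8 CPM in WT, 7.22, 15.0 and 10.7 CPM in KO, and 5.41, 6.15 and 6.45 CPM in neo. Neo lay below every other library, with a log2 fold of -0.87 (SE 0.26, adjusted p = 0.470, edgeR), and KO libraries differed among themselves by more than neo libraries did. Olfr1348, of the same subcluster, had 11.95 CPM in WT, 9.86, 12.8 and 12.5 CPM in KO, and 9.83, 7.41 and 8.97 CPM in neo. The highest neo library fell just below the lowest KO library. Olfr524 lies in subcluster 6 beside Olfr523 and had the opposite direction, at 6.47 ± 0.955 CPM in the KO group and 4.32 ± 0.704 CPM in neo (SD, n = 3 each). Olfr711 in the proximal part of subcluster 5 had 9.10 CPM in WT, 8.27, 10.3 and 12.04 CPM in KO, and 7.41, 5.68 and 7.98 CPM in neo. Olfr536 completed the 5 lower genes with the smallest p, with a log2 fold of -0.34 (SE 0.15, adjusted p = 0.539, edgeR) and overlapping groups.

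**Figure D5:**
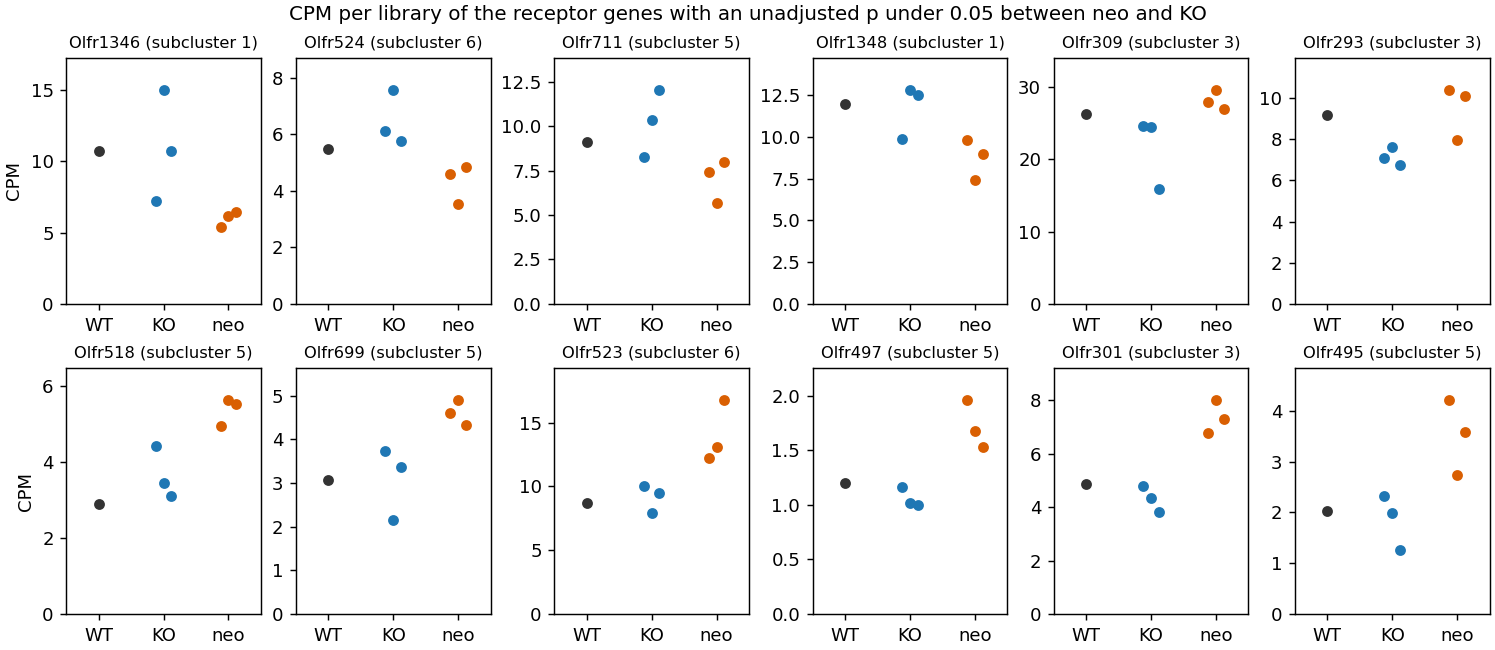
CPM in each library for the 12 receptor genes with an unadjusted p under 0.05 between neo and KO, ordered from the most negative to the most positive log2 fold. Points are libraries (1 WT, 3 KO, 3 neo). The first 4 panels are lower in neo. Groups do not overlap in any of the 12, but the genes were picked by p in these same libraries, which favours groups that lie apart.

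The 4 genes with the widest range over the 7 libraries, among those at a mean of 1 CPM or more, were Olfr714, Olfr310, Olfr495 and Olfr508. Olfr714, beside Olfr17, had 3.06, 1.61 and 1.33 CPM in the KO group and 1.92, 1.43 and 0.532 CPM in neo, a range of 5.76 times over the 7 libraries. The range of Olfr495 (3.32 times) lay between groups, from KO replicate 3 to neo replicate 1. Olfr310, at the edge of subcluster 3, ranged 3.38 times. Olfr310 stood at 1.62, 0.478 and 1.60 CPM in neo, with replicate 2 the low library. Olfr508 in the distal part of subcluster 5 had 2.14 CPM in KO replicate 1 and 0.911 and 0.773 CPM in the others. Over the 96 tested genes the median coefficient of variation was 18.8% in KO and 14.9% in neo.

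Comparisons with WT rest on 1 library, whose spread was taken from the others, and the 2 comparisons share that library. None of the 100 tested genes passed in KO against WT (lowest adjusted p = 1, edgeR), where 0.00523% of 19123 genes did. At an unadjusted p under 0.05 there were 0, against 0.288% of all genes higher and 0.439% lower (0.727% in all). DESeq2 called 0 of 110, against 0.00319% of all genes. All KO libraries lay below WT for 37 genes (37.0%) against 20.9% of all genes, and above it for 8 (8.0%) against 19.5%. The fold was positive for 31 genes (31.0%) against 51.7%. The median log2 fold was -0.15, against 0.01 over all genes tested. Olfr482, in the distal part of subcluster 5, had the smallest p, with 1.47 CPM in WT and 0.612, 0.964 and 0.773 CPM in KO (log2 fold -0.90, SE 0.43). Of its 50-base runs, 44.4% occur in transcripts of another gene, so its count is uncertain. Olfr527 in subcluster 6 and Olfr305 in subcluster 3 followed, with log2 folds of -0.65 and -0.45. The higher genes with the smallest p were Olfr491 (0.56), Olfr518 (0.33) and Olfr478 (0.52).

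In neo against WT 0 of 100 passed (lowest adjusted p = 1, edgeR), where 0.0105% of all genes did. DESeq2 called 0 of 110, against 0.00957% of all genes. At an unadjusted p under 0.05, 2 were higher (2.0%) against 1.24% of all genes and 4 were lower (4.0%) against 1.72%, 6 (6.0%) against 2.97% in all. All neo libraries lay above WT for 27 genes (27.0%) against 21.7%, and below it for 31 (31.0%) against 22.1%. The fold was positive for 51 genes (51.0%) against 51.0%. The median log2 fold was 0.01, the same as over all genes tested. Olfr700 in the proximal part of subcluster 5 had 1.38 CPM in WT, 0.674, 0.857 and 0.884 CPM in KO, and 0.426, 0.598 and 0.266 CPM in neo. WT stood highest and every neo library was below every KO library, with a log2 fold from WT of -1.66 (SE 0.52). Olfr2 had a log2 fold from WT of -0.96 (SE 0.38) and Olfr1346 one of -0.84 (SE 0.34). Olfr518, Olfr523 and Olfr301 were the higher genes with the smallest p, with log2 folds from WT of 0.88, 0.69 and 0.59. By subcluster the median log2 fold of neo from WT was -0.45 in subcluster 1, 0.04 in subcluster 3, 0.18 in the distal part of subcluster 5 and -0.15 in subcluster 6.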

How the data were processed

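Total RNA of whole olfactory epithelium was poly(A) captured and made into libraries with the KAPA RNA Hyperprep kit, per the labels' protocols. Read counts per gene, whole numbers from a table whose name says stranded, were deposited, and the submitters' processing notes name Trimmomatic 0.35, STAR 2.5.1b and GRCm38 (mm10). Multimapping reads stood in a row of their own and are not in gene counts, and all 4 summary rows were left out. Multimapping reads were 14.5% of all reads in neo replicate 1 and 17.3 to 19.6% in the other libraries. The authors also deposited gene TPM, per the labels, and the processing notes name RSEM. The authors' deposited table of log2 fold changes of KO over neo, with p-values, goes with DESeq2 1.18.1, per the labels.

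The robust quasi-likelihood test of edgeR 4.0.16 (R 4.3.3), two-sided, was run on the counts with TMM scaling, filterByExpr (minimum count 10, minimum total 15) and Benjamini-Hochberg adjustment over all genes tested at 0.05. Neo against KO used 6 libraries and WT comparisons all 7. Alternatives included limma 3.58.1 and DESeq2 1.42.0. Counts were simulated for neo against KO over 17638 genes. Of these, 61 of 100 genes changed 2-fold and 89 of 100 changed 4-fold were recovered, with 21 false calls. The false calls were a larger share of all calls than the 0.05 threshold sets. The changed genes were drawn from all genes tested, so recovery among the receptor genes of the set was not measured. Log2 folds of the set ran from -0.89 to 0.93, all under 2-fold. All pairs of libraries differed beyond counting noise (chi-square over degrees of freedom at least 8.96). Pairs with neo replicate 1 lay farthest apart, at 60.8 to 111.6, and all other pairs were at 8.96 to 35.4. GENCODE M21 gave the same coordinates for 112 of 112 genes. Promoter windows are from RefSeq (GRCm38.p6).

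The members and lists were chosen with earlier results of these data known. Named were the 3 genes with the highest TPM per subcluster, the 5 higher and 5 lower with the smallest p between neo and KO (3 and 3 against WT), Olfr2, Olfr6 and Olfr17, the 4 with the widest range at a mean of 1 CPM or more, and those with at most 3 reads. Genes named for shared sequence or as neighbours were chosen after their values were seen. Pairs of similar proteins were not analysed here. Depth sets counting error only.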

Additional observations from a re-analysis of the deposited data

How the results depend on the processing

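No receptor gene of the set passed in any of the 3 comparisons under any alternative run. The median log2 fold of neo over KO stayed positive in all of them and ran from 0.14 to 0.34 when 1 library was left out, while genes at an unadjusted p under 0.05 ran from 5 to 19. With TPM in place of CPM, the log2 ratio of neo to KO for summed levels was -0.15 in subcluster 1, 0.31 in 2, 0.41 in 3, 0.55 in 4, 0.33 in 5 and 0.047 in 6, against -0.34, 0.24, 0.24, 0.06, 0.20 and -0.04, and in subcluster 2 the groups then overlapped. The median fold of all genes is itself 0.10 on log2(TPM + 0.1). A gap of 0.5 Mb leaves the distal part of subcluster 5 at 0.34. Leaving out 1 library gave ratios of -0.46 to -0.24 in subcluster 1, 0.14 to 0.31 in 2, 0.16 to 0.30 in 3, -0.03 to 0.16 in 4, 0.13 to 0.28 in 5 and -0.09 to 0.01 in 6.

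With a replicate block, 8 genes of the set had an unadjusted p under 0.05 and 0 passed. Deviations of same-numbered libraries correlated at -0.10, -0.05 and 0.19, within the range of differently numbered pairs (-0.19 to 0.24). With so few libraries this cannot decide whether the numbers pair the samples. The fold of Olfr310 (0.06) changed sign with the block (-0.05) and with limma on log2(TPM + 0.1) (-0.01). Leaving out 1 library turned the sign of Olfr310 (-0.22 to 0.43), Olfr521 (-0.10 to 0.26), Olfr6 (-0.19 to 0.13), Olfr533 (-0.15 to 0.04) and Olfr478 (-0.32 to 0.36). The count of positive folds was chosen for this after the data were seen. The cause was not tested.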
